A study of Mus musculus with 32 samples.

Results

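The transcripts described here are those of 10 genes of the insulin-like growth factor (IGF) axis, taken by gene name from the tables of all 32 quadriceps libraries. They are Igf1, Igf1r, Igf2r, Irs1 and the binding protein genes Igfbp2, Igfbp3, Igfbp4, Igfbp5, Igfbp6 and Igfbp7, which make up 10 of the 53801 gene IDs listed. All 10 were among the 12817 genes that passed a filter of at least 1 TPM in at least 4 libraries. TPM is a length-scaled measure of transcript abundance that allows levels to be set beside each other between genes. Igfbp2 reached 1 TPM in 7 of 32 libraries, all of them Col6a2-/- at 5 weeks, and was listed at 0 in 9, so it passed only through that group. The other 9 members were at or above 1 TPM in all 32.

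Wild-type (WT) mice were compared with mice that carried Col6a2 tm1(KOMP)Vlcg, a whole-body knockout allele, on both chromosomes, written here as Col6a2-/-. Col6a2 encodes a chain of collagen VI, a microfibrillar collagen of the muscle matrix. The allele came from a C57BL/6N strain and was crossed for 5 generations to C57BL/6J, and both genotypes were bred from heterozygous parents. Genotype, age (5 or 25 weeks) and sex gave 8 groups of 4 mice, none given any agent, with 1 library per mouse from quadriceps cryosections. Mice are numbered 1 to 4 in each group by the replicate number of their label.

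IGF1 is a secreted growth factor made by the liver and, locally, by muscle and its connective tissue. It binds the receptor kinase IGF1R, which signals through the adaptor IRS1 to PI3K and AKT, raises protein synthesis and restrains the FoxO factors that drive muscle atrophy genes. The IGF binding proteins hold IGF1 and IGF2 in blood and matrix and can limit or prolong their action, while IGF2R carries IGF2 and lysosomal enzymes to the lysosome and has no kinase.

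The genes lie at the following places on mouse build GRCm38, and the tables give the same starts and ends as the GENCODE M21 annotation. Igf1 is at chr10:87858265-87937042 and Igf1r at chr7:67952827-68233668, both on the plus strand. Igf2r is at chr17:12682406-12769664 and Irs1 at chr1:82233101-82291416, both on the minus strand. Igfbp2 (chr1:72824503-72852474, plus) and Igfbp5 (chr1:72857932-72874884, minus) lie tail to tail, 5457 bases apart with no listed gene between them. Igfbp3 (chr11:7206086-7213923, minus) and Igfbp4 (chr11:99041244-99054392, plus) share a chromosome, Igfbp6 is at chr15:102144362-102149511 (plus) and Igfbp7 at chr5:77349240-77408041 (minus). All 10 are annotated as protein coding. Igf2r overlaps Airn, an antisense RNA on the other strand with a median of 5.79 TPM, and the last 85 bases of Igfbp7 overlap Polr2b. Whether the authors counted by strand is not given in the sources used here, so reads in these overlaps may be shared.

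The 250 bases before the RefSeq start are printed for the 3 genes that rose at 5 weeks and for Igfbp5, the neighbour of Igfbp2 that did not pass the test. Sequences are from RefSeq on GRCm38.p6, 5′ to 3′ on the strand of the gene. Capitals mark E-boxes (CANNTG), the letters recognised by myogenic and other basic helix-loop-helix factors. The pattern finds the same places on both strands, though the middle letters of a match can differ between the strands. For Igfbp2 the first of its 2 listed starts is shown (chr1:72824230-72824479). The windows of Igfbp5 (chr1:72874866-72875115), Igfbp7 (chr5:77408046-77408295) and Igf2r (chr17:12769707-12769956) are on the minus strand.
Igfbp2: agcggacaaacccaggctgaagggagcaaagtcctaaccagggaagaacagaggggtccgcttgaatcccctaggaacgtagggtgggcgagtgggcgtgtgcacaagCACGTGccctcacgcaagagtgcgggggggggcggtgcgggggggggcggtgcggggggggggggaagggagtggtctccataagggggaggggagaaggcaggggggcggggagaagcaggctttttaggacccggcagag
Igfbp5: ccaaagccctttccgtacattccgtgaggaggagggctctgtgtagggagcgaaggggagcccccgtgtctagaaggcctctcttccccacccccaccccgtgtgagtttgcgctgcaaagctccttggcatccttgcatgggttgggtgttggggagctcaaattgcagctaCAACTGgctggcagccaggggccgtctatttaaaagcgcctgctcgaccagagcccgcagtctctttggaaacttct
Igfbp7: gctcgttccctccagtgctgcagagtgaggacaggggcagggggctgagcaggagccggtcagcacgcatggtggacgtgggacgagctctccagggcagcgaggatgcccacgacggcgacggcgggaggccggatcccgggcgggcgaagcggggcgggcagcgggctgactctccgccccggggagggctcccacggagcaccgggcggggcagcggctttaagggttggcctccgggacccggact
Igf2r: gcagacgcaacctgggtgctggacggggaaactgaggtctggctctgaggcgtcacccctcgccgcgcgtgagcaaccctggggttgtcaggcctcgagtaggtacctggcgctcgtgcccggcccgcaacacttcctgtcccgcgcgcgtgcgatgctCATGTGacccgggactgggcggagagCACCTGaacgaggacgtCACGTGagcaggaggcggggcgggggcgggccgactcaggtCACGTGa
These windows held 1 E-box for Igfbp2, 1 for Igfbp5, 0 for Igfbp7 and 4 for Igf2r. Of 32851 promoter windows of this length, 66.2% held at least 1, with a median of 1. The GC box letters GGGCGG (either strand) occurred 3 times for Igfbp2, 4 times for Igfbp7, 3 times for Igf2r and 0 times for Igfbp5, and 0 times before the second Igfbp2 start (chr1:72825137-72825386), which also had 1 E-box, against 32.7% of windows with at least 1. A match describes these letters only.

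Several facts of the whole series bear on these values. Col6a2 was at 19.9 to 51.2 TPM in WT at 5 weeks and 6.60 to 13.6 at 25 weeks, and at or below 0.171 and 0.0345 TPM in Col6a2-/- (two-sided exact permutation test at each age, p = 0.000155, the smallest that 8 against 8 allows). The myofibre genes Acta1, Ckm and Tnnt3 were at 2174 TPM or more in each library, while the summed liver markers Alb, Apoa1 and Ttr did not exceed 4.52 TPM. A relative measure of depth (coverage over FPKM) had medians of 11.1 in WT and 8.94 in Col6a2-/- at 5 weeks, and 7.58 and 8.44 at 25 weeks. Its part in the differences was not tested. Mitochondrial transcripts made up 31.9% to 46.9% of the TPM of each library, and Rn7s transcripts 20.8% to 30.5%. TPM sums to a fixed total, so the TPM of all other genes depends on these shares. The Col6a2-/- females at 5 weeks were not uniform. Female 4 had the lowest summed macrophage markers (99.1 TPM, against 192 to 343 in females 1 to 3) and the lowest summed fibroblast markers (787 TPM), and female 2 the highest of both (343 and 2254 TPM). Member calls that change without either are named beside the result. Read counts and their sampling error are unknown here.

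In levels, the binding protein transcripts outweighed the growth factor. Igfbp7 was the most abundant of the 10 by median over the 32 libraries (57.1 TPM, from 31.03 to 142), followed by Igfbp5 (41.1 TPM) and Igfbp6 (30.4 TPM). Igfbp4 (14.4), Irs1 (14.3) and Igf2r (13.9) had medians near one another, Igf1 (7.13) and Igfbp3 (6.59) lower ones, and Igf1r (1.65) and Igfbp2 (0.102) the lowest. As a share of the summed TPM of the 6 binding proteins, Igfbp7 made up 26.8% to 53.0% per library, Igfbp5 18.4% to 43.4%, Igfbp6 11.3% to 31.2%, Igfbp4 5.39% to 14.4%, Igfbp3 2.02% to 7.36% and Igfbp2 0% to 0.854%. These are transcript shares, and no protein was measured. In WT females the mean Igfbp7 share was 41.0% ± 3.29 at 5 weeks and 38.3% ± 3.23 at 25 weeks (SD, n = 4). WT males went from 47.5% ± 1.73 to 35.0% ± 5.46, Col6a2-/- females from 45.9% ± 5.42 to 34.5% ± 5.50, and Col6a2-/- males from 49.0% ± 2.97 to 35.2% ± 2.86 (SD, n = 4). The share was thus lower at the later age in each of the 4 pairs, and no test was run on it.

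**Figure D1:**
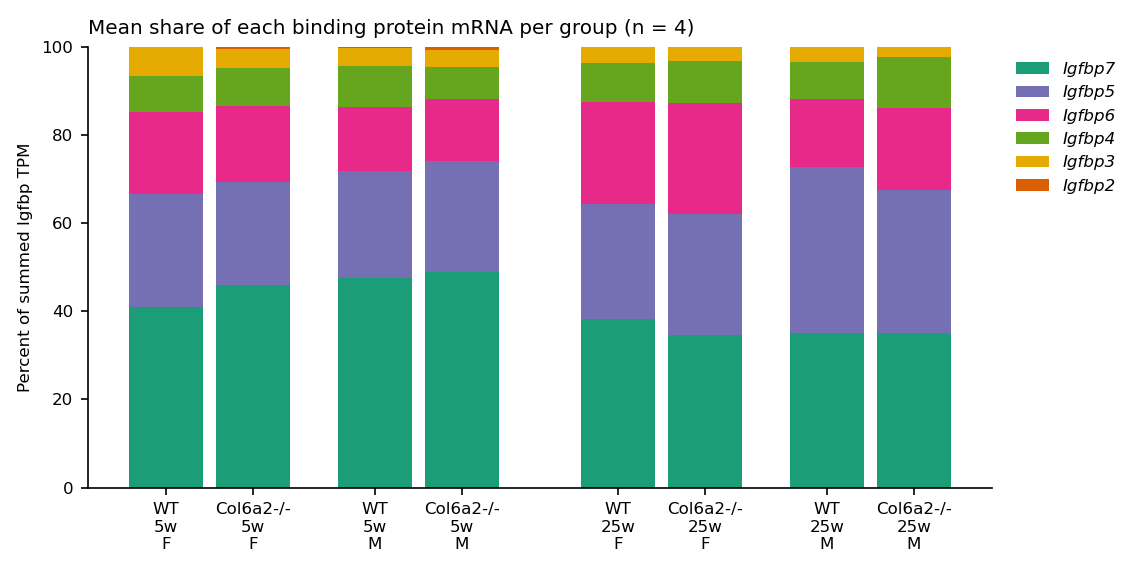
Mean share of each binding protein transcript in the summed Igfbp TPM (y axis, percent) in the 8 groups of 4 mice (x axis), stacked to 100%. Igfbp7 is the widest band in 7 of the 8 groups, WT males at 25 weeks being the exception with 37.7% Igfbp5 and 35.0% Igfbp7, and Igfbp2 stays below 1% in each.

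**Figure D2:**
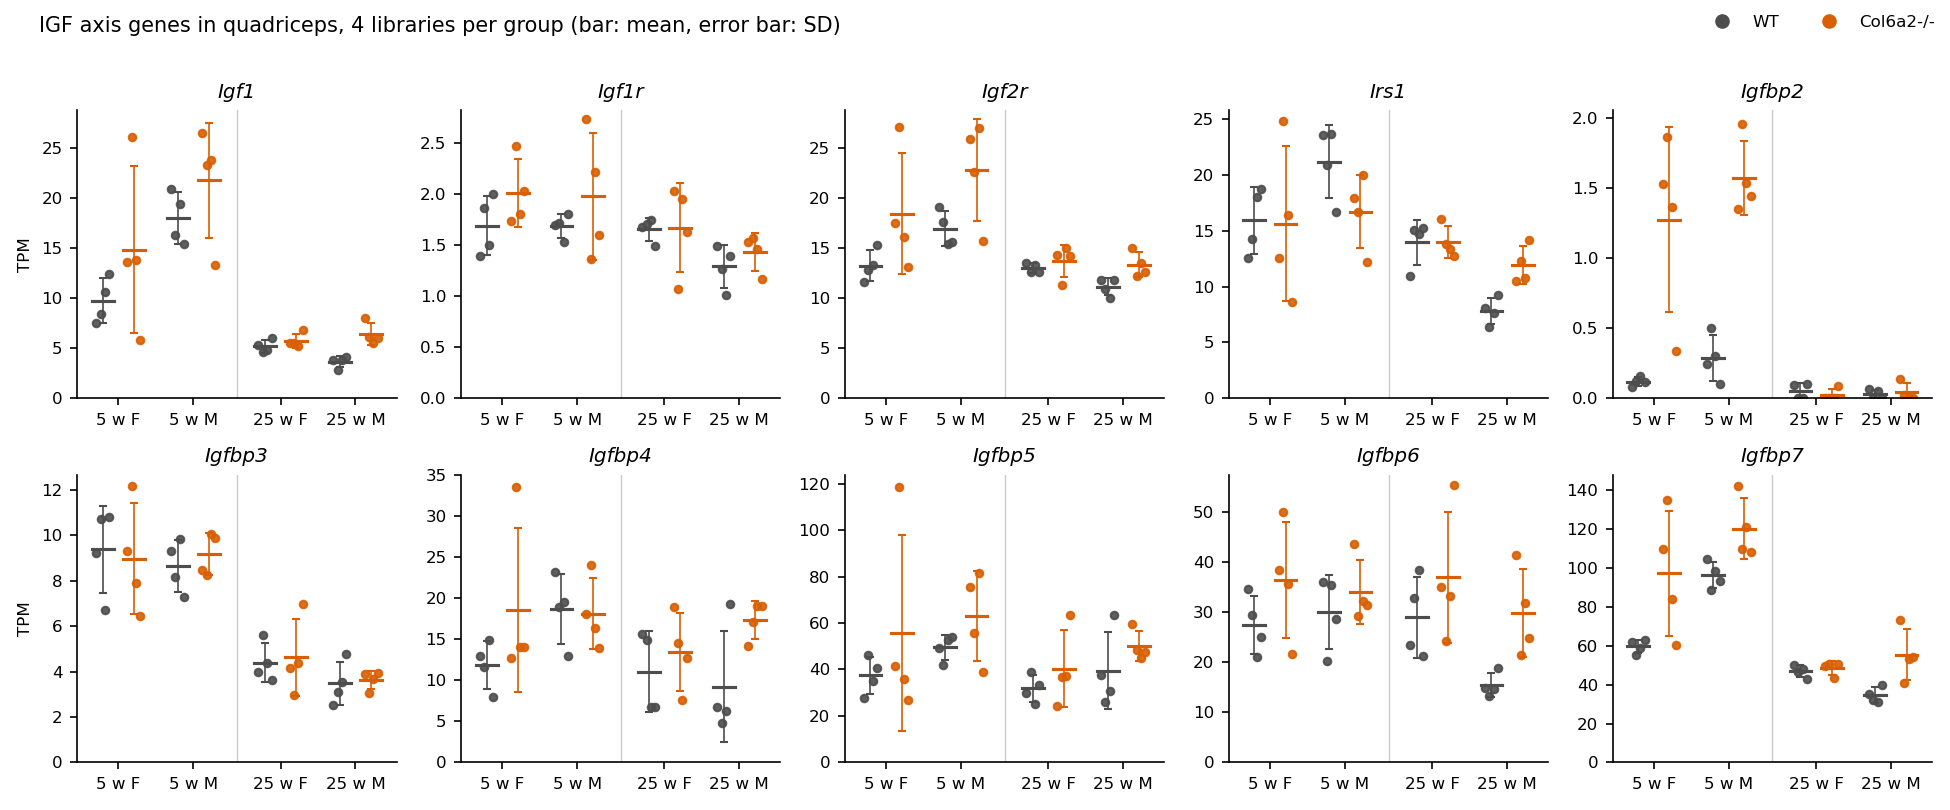
TPM of the 10 genes (y axis, scaled per gene from 0) in each library, by age and sex (x axis; 5 w and 25 w are weeks, F female, M male). Points are mice (grey WT, orange Col6a2-/-), bars are means and error bars SD of 4; Igfbp2 is seen mainly in the 5-week Col6a2-/- groups, and Igf1, Igfbp3 and Igfbp7 are lower at 25 weeks.

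Loss of Col6a2 at 5 weeks was compared over 8 against 8 mice, with the sexes weighted equally. Igfbp7 and Igf2r rose, 2 of the 9 members that were above the filter in all groups, near the 25.4% of all tested genes called in either direction and the 23.2% called higher. None of the 9 fell, against 2.14% of genes called lower. Igfbp2 also rose but is given apart, since it was tested only because it was high in the 5-week Col6a2-/- group, and a gene chosen that way had to differ. A call means a Benjamini-Hochberg adjusted p under 0.05 in limma over all 12817 genes, and changes are differences of log2(TPM + 1), Col6a2-/- minus WT, with their standard error (SE). The median gene of the whole table moved by 0.15.

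Igfbp2, a binding protein made by proliferating and differentiating myoblasts among other cells, had 0.0771, 0.121, 0.159 and 0.112 TPM in WT females 1 to 4 at 5 weeks. WT males had 0.243, 0.5002, 0.297 and 0.101 TPM. Col6a2-/- females had 1.53, 1.86, 1.36 and 0.334 TPM, and Col6a2-/- males 1.35, 1.95, 1.53 and 1.45 TPM. All Col6a2-/- mice were above all WT mice of their own sex, and 7 of 8 were above all 8 WT mice, female 4 being the exception. Within females 8.53% of tested genes were higher without overlap, and within males 9.32%. The means were 0.201 ± 0.142 TPM in WT and 1.42 ± 0.492 TPM in Col6a2-/- (SD, n = 8), a 7.06-fold ratio. The change was 0.99 (SE 0.0992, adjusted p = 3.89e-08), and it ran from 0.92 to 1.10 when each library was left out in turn. With no filter, where the 32958 genes detected in any library were tested, the Igfbp2 change had an adjusted p of 1.66e-07. The log2(TPM + 1) scale compresses a gene this low, and with a pseudocount of 0.1 TPM the change was 2.34. These are low levels, and the reads behind them are unknown.

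Igfbp7, a secreted protein of vessel walls and matrix that binds IGFs only weakly, had 61.8, 55.4, 58.9 and 62.8 TPM in WT females and 105, 88.8, 98.6 and 93.4 TPM in WT males at 5 weeks. Col6a2-/- females had 110, 135, 84.1 and 60.5 TPM, and Col6a2-/- males 142, 110, 121 and 108 TPM. The male groups did not overlap, and in females only the low female 4 fell among the WT values. The means were 78.02 ± 20.2 and 109 ± 26.5 TPM (SD, n = 8), a 1.39-fold ratio, and the change was 0.47 (SE 0.116, adjusted p = 0.00411). It kept its call under each of the 13 alternative settings and each library left out (adjusted p from 7.85e-05 to 0.0214), though the Igfbp7 change fell to 0.28 with median-of-ratios scaling.

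Igf2r, the clearance receptor for IGF2, had 11.54 to 15.3 TPM in WT females and 15.4 to 19.1 TPM in WT males at 5 weeks. Col6a2-/- females had 17.4, 27.1, 16.1 and 13.1 TPM, and Col6a2-/- males 25.9, 22.5, 26.9 and 15.6 TPM. Of the 8 Col6a2-/- mice 4 were above all WT mice, and 6 were above the WT mean of their sex. The change was 0.39 (SE 0.109, adjusted p = 0.0093), which lost its call when only the 16 libraries of that age were fitted (adjusted p = 0.0596). After GC and length correction the Igf2r change was 0.19 (adjusted p = 0.0117). Airn, which overlaps it, was at 5.49 ± 1.20 TPM in WT and 6.74 ± 1.71 TPM in Col6a2-/- (SD, n = 8), and its share in the Igf2r reads was not tested.

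The remaining 7 members did not pass the test at 5 weeks. Igf1 was at 7.49, 8.45, 10.7 and 12.5 TPM in WT females and 13.7, 26.1, 13.8 and 5.84 TPM in Col6a2-/- females. Males had 20.96, 16.3, 19.5 and 15.4 TPM in WT and 26.6, 23.3, 23.9 and 13.4 TPM in Col6a2-/-. The 5-week Col6a2-/- mice thus held both the highest Igf1 value of the series and, in female 4, the lowest Igf1 value at that age. The Igf1 change was 0.32 (95% interval -0.03 to 0.68, adjusted p = 0.168), and it was 0.17 (adjusted p = 0.465) without Col6a2-/- female 2 and 0.50 (adjusted p = 0.00634) without female 4. With array weights Igf1 also passed (0.33, adjusted p = 0.044), and with median-of-ratios scaling it was 0.14 (adjusted p = 0.493). Irs1, the adaptor below IGF1R, was the single member with a negative estimate, -0.22 (95% interval -0.51 to 0.07, adjusted p = 0.252). The Irs1 change was -0.34 (adjusted p = 0.0529) without female 2 and -0.10 (adjusted p = 0.535) without female 4. Under 4 scalings Irs1 passed the test as lower, at down to -0.42 (adjusted p = 0.0074). These were median-of-ratios, without the 100 most abundant genes, quantile normalization, and GC and length correction. Igf1r changed by 0.14 (95% interval -0.04 to 0.32), near the median of all genes, and by 0.09 without Col6a2-/- male 1. Its sign turned after quantile normalization and after GC and length correction, down to -0.05.

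Among the other binding proteins at 5 weeks, Igfbp3, the main carrier in blood, had 9.02 ± 1.51 TPM in WT and 9.06 ± 1.72 TPM in Col6a2-/- (SD, n = 8), a change of 0.0032 (95% interval -0.26 to 0.27, adjusted p = 0.99). Igfbp5, a binding protein of muscle and bone matrix, was at 27.7 to 53.9 TPM in WT and 26.8 to 119 TPM in Col6a2-/-, a change of 0.32 (95% interval -0.15 to 0.78). Female 2 gave the 119 TPM, and without it the Igfbp5 change was 0.10. Igfbp4 changed by 0.24 (95% interval -0.24 to 0.72), and by 0.09 without the same female, which had 33.5 TPM. Over the other settings Igfbp4 fell to 0.04 and Igfbp5 to 0.12. Igfbp6, which prefers IGF2 over IGF1, changed by 0.28 (95% interval -0.08 to 0.63), by 0.19 without female 2 and by 0.09 with median-of-ratios scaling. The intervals of Igf1, Igfbp4, Igfbp5 and Igfbp6 all reach past the 0.47 measured for Igfbp7.

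**Figure D3:**
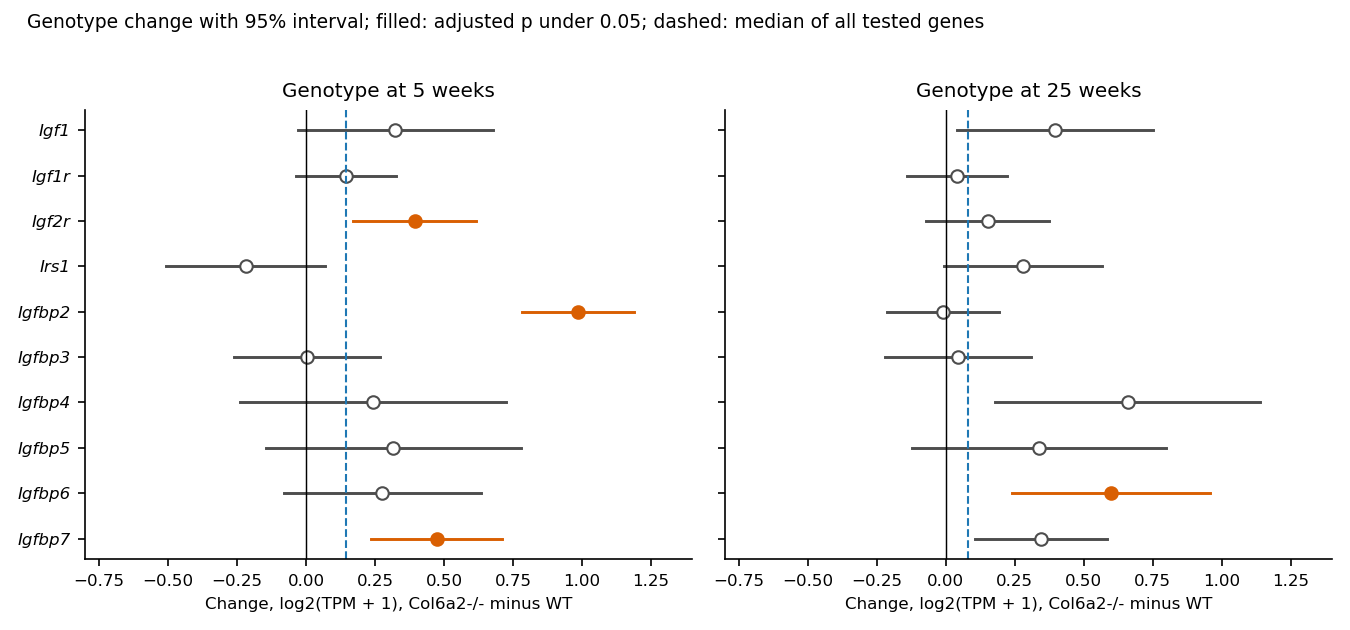
Genotype change of each gene (x axis, log2(TPM + 1), Col6a2-/- minus WT; points with 95% intervals) at 5 and 25 weeks, 8 against 8 mice each. Filled orange points passed an adjusted p under 0.05, and the dashed line is the median of the 12817 tested genes (0.15 and 0.08). Igfbp7 and Igf2r pass at 5 weeks and Igfbp6 at 25 weeks. Igfbp2 is also filled at 5 weeks, but it was tested only because it was high in the 5-week Col6a2-/- group.

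Split by sex at 5 weeks, Igfbp2 rose in both females (0.97, adjusted p = 5.73e-05, 12.9% of genes called) and males (1.003, adjusted p = 3.1e-05, 5.03% called). As above, these Igfbp2 values are a description, since the same libraries brought it past the filter; with no filter the adjusted p was 0.000172 and 7.17e-05. Igfbp7 rose in females (0.64, SE 0.165, adjusted p = 0.0127) and gave 0.31 in males (SE 0.165, adjusted p = 0.296). The female call was lost in 2 of the 32 fits with a library left out, with a change of 0.46 (adjusted p = 0.103) without Col6a2-/- female 2, and in the fit of the 16 libraries of that age (adjusted p = 0.0553). Igf2r gave 0.41 in females (adjusted p = 0.0792) and 0.38 in males (adjusted p = 0.157), and it passed in females without Col6a2-/- female 4 (0.54, adjusted p = 0.00921) or Col6a2-/- male 4 (adjusted p = 0.0482), while without female 2 the female value was 0.21 (adjusted p = 0.435). In males it passed without Col6a2-/- male 4 (0.54, adjusted p = 0.0224), with array weights, and when scaled without mitochondrial and Rn7s genes. Igf1 gave 0.42 in females (adjusted p = 0.255) and 0.23 in males (adjusted p = 0.636), and in females it was 0.11 (adjusted p = 0.851) without female 2 and passed without female 4 (0.77, adjusted p = 0.00592). The male Igf1 value was 0.12 (adjusted p = 0.91) without Col6a2-/- male 1 and 0.43 (adjusted p = 0.256) without male 4. The other 6 members were not called in either sex, with changes from -0.10 (Irs1) to 0.52 (Igfbp4) in females and from -0.33 (Irs1) to 0.29 (Igfbp5) in males. Tested over both ages, the genotype difference between the sexes was called for none of the 10 members, each with an adjusted p of 1, and for 0.0156% of genes. That test averages the ages, so opposite sex differences at the 2 ages cancel in it. For Igfbp7 the female and male changes were 0.64 and 0.31 at 5 weeks, and 0.05 and 0.64 at 25 weeks. Whether the genotype change differs by sex within an age was not tested.

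At 25 weeks, 1 of the 10 members was called by genotype, Igfbp6, which rose, against 4.7% of genes called and 4.47% called higher. The count moved from 0 to 5 of the members with the setting: it was 0 without the filter, in FPKM and when scaled without mitochondrial and Rn7s genes, 3 with the 16 libraries of that age, and 5 with array weights. Igfbp6 had 23.5, 32.7, 38.3 and 21.1 TPM in WT females and 34.9, 24.3, 33.1 and 55.3 TPM in Col6a2-/- females. WT males had 14.9, 13.3, 14.6 and 18.8 TPM, and Col6a2-/- males 41.3, 21.5, 31.8 and 24.8 TPM. The males did not overlap and the females did. The change was 0.60 (SE 0.175, adjusted p = 0.0448), a 1.51-fold ratio of means. The call was lost in 16 of the 32 fits with a library left out (adjusted p up to 0.124), without the filter, in FPKM and when scaled without mitochondrial and Rn7s genes.

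Igfbp2 was at or below 0.137 TPM in each mouse at 25 weeks and listed at 0 in 4 of 8 WT and 5 of 8 Col6a2-/- mice, with a change of -0.01 (95% interval -0.21 to 0.19). Igfbp4 gave 0.66 (SE 0.235, adjusted p = 0.104), Igf1 0.40 (adjusted p = 0.2), Igfbp7 0.35 (adjusted p = 0.0851), Igfbp5 0.34 (adjusted p = 0.428) and Irs1 0.28 (adjusted p = 0.275). Igf2r gave 0.15 (adjusted p = 0.472), Igfbp3 0.04 (adjusted p = 0.89) and Igf1r 0.04 (adjusted p = 0.845). Over the other settings Igf2r fell to 0.03, and Igfbp3 and Igf1r turned negative, down to -0.07 and -0.09. With a library left out, Igf1r ran from 0.007 to 0.0986. Without WT male 4, the highest WT value for Igfbp4 (19.3 TPM), Igfbp4 was called at 0.86 (adjusted p = 0.0168). Without Col6a2-/- female 4 the Igfbp5 change was 0.22 (adjusted p = 0.674). Igfbp7 passed the test in 3 fits with a library left out, with the 16 libraries of that age, with array weights and under 3 scalings (0.23 to 0.41, adjusted p from 0.00544 to 0.0466). The libraries left out were the 5-week Col6a2-/- females 2 and 4 and the 25-week Col6a2-/- male 2. Igf1 passed with the 16 libraries of that age (adjusted p = 0.00925) and with array weights (0.0262), and Irs1 and Igfbp4 with array weights (0.0494 and 0.0172). The median of all genes was 0.08.

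In males at 25 weeks Igfbp6 (0.88, SE 0.248, adjusted p = 0.0476) and Igfbp7 (0.64, SE 0.165, adjusted p = 0.0315) were called, 2 of 10 against 3.03% of genes. Igfbp7 had 35.38, 32, 31.03 and 40.0 TPM in WT males and 73.1, 41.1, 53.4 and 54.4 TPM in Col6a2-/- males. All Col6a2-/- males lay above all WT males for Igf1, Igf2r, Igfbp6, Igfbp7 and Irs1, as they did for 13.9% of all tested genes. Igf1 was at 3.64 ± 0.552 and 6.41 ± 1.10 TPM (SD, n = 4), with a change of 0.67 (adjusted p = 0.122), and Irs1 at 7.85 ± 1.18 and 11.9 ± 1.70 TPM (SD, n = 4), with 0.55 (adjusted p = 0.12). Igfbp4 had the largest estimate of the members in males (1.02, adjusted p = 0.0835), and the other 5 members lay between 0.02 (Igfbp2) and 0.41 (Igfbp5). The Igfbp6 call was lost in 20 of 32 fits with a library left out and that of Igfbp7 in 6, and both were lost without the filter and when scaled without mitochondrial and Rn7s genes, Igfbp6 also in FPKM. The highest adjusted p came without Col6a2-/- male 1 (0.23 for Igfbp6 at 0.71, and 0.179 for Igfbp7 at 0.50), where 55 genes in place of 388 were called. Igfbp4, Igf1 and Irs1 passed without the 5-week Col6a2-/- female 2 (adjusted p = 0.0438, 0.044 and 0.0456), Igf1 also without female 4 (0.0317), and Igfbp4 without WT male 4 (1.41, adjusted p = 0.0112). All 3 passed with array weights, and Igf1 and Irs1 with the 16 libraries of that age (adjusted p = 0.00515 and 0.0173). In females at 25 weeks limma called none of the members, each with an adjusted p of 1, and 0.0078% of genes; the Igfbp6 change there was 0.32 (SE 0.248), with 0.11 when Col6a2-/- female 4 was left out and 0.49 when Col6a2-/- female 2 was.

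The difference of the genotype change between the ages was called for 1 member and for 0.492% of genes. For Igfbp2 the 25-week change minus the 5-week change was -0.997 (SE 0.140, adjusted p = 7.17e-05). Igfbp2 entered the tested set through the very group that sets this difference, so its call is a description; with no filter the adjusted p was 0.000159. No other member passed, with adjusted p from 0.521 for Irs1 (0.50, SE 0.199) to 0.997 for Igfbp5. Igfbp6, called at 25 weeks alone, had a difference between ages of 0.32 (SE 0.248, adjusted p = 0.932), or 0.21 without the 5-week Col6a2-/- female 4, so its change was not shown to differ between the ages.

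From 5 to 25 weeks in WT, Igf1, Igfbp3, Igfbp7 and Irs1 fell, 4 of 10, against 19.8% of genes called and 15.3% called lower. Igf1 fell by 1.41 (SE 0.173, adjusted p = 8.98e-07), from 13.9 ± 4.97 to 4.42 ± 0.997 TPM (SD, n = 8), a 3.15-fold ratio. Igfbp3 fell by 1.03 (adjusted p = 1.24e-06), from 9.02 to 3.94 TPM, and Igfbp7 by 0.90 (adjusted p = 2.04e-06), from 78.02 to 40.8 TPM. For these 3 genes all 8 mice at 25 weeks were below all 8 at 5 weeks, as for 2.3% of genes. Irs1 fell by 0.75 (adjusted p = 0.000346), from 18.6 to 10.9 TPM, with overlap. The other 6 members were not called: Igfbp4 gave -0.63 (adjusted p = 0.0559), Igf2r -0.29 (0.0592), Igfbp6 -0.42 (0.0931), Igfbp2 -0.20 (0.156), Igf1r -0.12 (0.36) and Igfbp5 -0.31 (0.377). With a library left out, Igfbp4 passed in 7 of 32 fits, Igf2r in 4, and Igfbp6 and Igfbp2 in 1 each. The 5-week Col6a2-/- female 2 was among those libraries for Igfbp4 and Igf2r (adjusted p = 0.0333 and 0.0177), and female 4 for Igf2r and Igfbp2 (0.037 and 0.0191). Igf2r also passed with median-of-ratios scaling, without the 100 most abundant genes, after quantile normalization and after GC and length correction. Igfbp2 and Igfbp4 passed with a pseudocount of 0.1, and Igfbp2, Igfbp4, Igfbp6 and Igf2r with array weights.

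In Col6a2-/- mice 5 of the 9 members above the filter in all groups fell with age, against 34.2% of genes called and 28.8% called lower. They were Igf1 (by 1.33, adjusted p = 1.03e-06), Igfbp7 (by 1.03, adjusted p = 1.22e-07), Igfbp3 (by 0.99, adjusted p = 1.15e-06), Igf2r (by 0.53, adjusted p = 0.000431) and Igf1r (by 0.23, adjusted p = 0.0457). Igfbp2, tested only through its level at 5 weeks, fell by 1.20 (adjusted p = 4.42e-10, and 3.77e-09 with no filter). All 25-week Igfbp2 values were below all 5-week values, where 1.88% of genes had such a gap. The Igf1r call was lost in 16 of 32 fits with a library left out (adjusted p = 0.109 without the 5-week female 2 and 0.0503 without female 4), in the fit with the replicate number as a block, and under 8 other settings. Irs1 changed by -0.25 in Col6a2-/- (SE 0.141, adjusted p = 0.171), passed without the 5-week female 4 (-0.37, adjusted p = 0.0206), and was -0.13 (adjusted p = 0.471) without the 5-week female 2. Igfbp5 gave -0.28 (adjusted p = 0.345), Igfbp4 -0.22 (0.501) and Igfbp6 -0.10 (0.702). Without the 5-week female 2, Igfbp5 and Igfbp4 gave -0.06 each (adjusted p = 0.839 and 0.873). The Igfbp6 value ran from -0.21 without the 5-week female 4 to -0.01 without the 25-week female 2. That value turned positive, up to 0.11, with median-of-ratios scaling, without the 100 most abundant genes, after quantile normalization and after GC and length correction. For Irs1 the difference from its fall in WT is the age-by-genotype test above, which it did not pass. The median gene moved by -0.08 in WT and -0.14 in Col6a2-/-. These age comparisons share libraries with the genotype comparisons.

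Sex was tested over both ages first, and no member was called, against 3.05% of genes; the lowest adjusted p was 0.25, for Igf1, followed by 0.29 for Igfbp7. The WT values differed by sex in opposite ways at the 2 ages, so sex within each age was added after seeing the data. These comparisons restate the values that prompted them, and their p-values are given as a description. At 5 weeks males exceeded females in Igf1 (0.74, SE 0.173, adjusted p = 0.0113) and Igfbp7 (0.52, SE 0.116, adjusted p = 0.00859), where 4.49% of genes were called. WT females had 9.77 ± 2.24 TPM of Igf1 at 5 weeks and 5.19 ± 0.644 TPM at 25 weeks, and WT males 18.0 ± 2.62 and 3.64 ± 0.552 TPM (SD, n = 4). The WT sexes did not overlap in Igf1 at either age, and no share of all genes with such a gap was computed for sex. At 25 weeks no member was called by sex, against 2.41% of genes, and Irs1 came nearest (-0.49, adjusted p = 0.0618). Irs1 passed without WT female 1 or the 5-week Col6a2-/- female 2 or 4 (adjusted p from 0.0161 to 0.0485), in FPKM, with array weights and after GC and length correction. The sex difference changed with age for Igf1 (-0.88, SE 0.245, adjusted p = 0.0426), Irs1 (-0.77, SE 0.199, adjusted p = 0.0319) and Igfbp7 (-0.65, SE 0.165, adjusted p = 0.0287), where 3.43% of genes were called. The Igf1 call was lost in 24 of 32 fits with a library left out and under 7 of 12 other settings (adjusted p up to 0.1). That of Irs1 was lost in 9 fits and under 6 settings (adjusted p up to 0.0979), and that of Igfbp7 in 3 fits and under 2 settings (adjusted p up to 0.064). Each of the 3 calls was lost without the filter and when scaled without mitochondrial and Rn7s genes. Without the 5-week Col6a2-/- female 4 the values of Igf1 and Irs1 were -0.71 (adjusted p = 0.0528) and -0.65 (0.0509).

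Over the 8 groups the order of mean levels was much the same for Igf1 and Igfbp7. For both it ran from Col6a2-/- males at 5 weeks (21.8 and 120 TPM) down to WT males at 25 weeks (3.64 and 34.6 TPM). Neighbours in the Igf1 order overlapped except the last pair, WT females and WT males at 25 weeks. In the Igfbp7 order the last pair and the WT sexes at 5 weeks did not overlap. The orders were set by the values themselves, and no share of all genes with such gaps between neighbours was computed. Igf2r ran from 22.7 to 11.1 TPM between the same end groups. For Igf1r, Igfbp2, Igfbp4 and Igfbp5 all neighbouring groups overlapped, and for Igfbp3 the only neighbours without overlap were WT males at 5 weeks and Col6a2-/- females at 25 weeks, though the 5-week and 25-week Col6a2-/- mice overlapped.

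Other genes of the pathway were taken from 5 lists of growth hormone input and IGF release, other ligands, receptors and adaptors, the PI3K, AKT and mTOR chain, FoxO factors with their muscle targets, and IGF binding relatives. Of the 10 relatives listed, 7 were found by gene name, and Ccn1, Ccn2 and Ccn3 were not, so these went untested. Of the 59 genes of the lists that passed the filter, 18 rose and 2 fell at 5 weeks. Of all tested genes 23.2% were called higher and 2.14% lower. The median change of the 59 was 0.20, against 0.15 for all genes. At 25 weeks 1 rose and none fell, with a median of 0.02, where 4.7% of all genes were called and their median was 0.08. The split at 5 weeks depended on scaling: 9 higher and 12 lower with median-of-ratios factors, and 9 higher and 14 lower after a correction for GC content and length. With a library left out, 14 to 24 were called higher and 1 to 5 lower, with 24 and 5 without Col6a2-/- female 4 and 14 and 2 without Col6a2-/- male 1. At 25 weeks up to 4 were called higher and up to 4 lower over the other settings.

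The largest changes at 5 weeks were in the list of FoxO factors and their targets. Cdkn1a, a cell cycle inhibitor, was at 1.51 to 4.78 TPM in WT and 6.50 to 22.8 TPM in Col6a2-/- (1.98, adjusted p = 1.1e-07). Gadd45a, a growth arrest gene, was at 5.16 to 9.02 and 12.0 to 42.1 TPM (1.65, adjusted p = 1.14e-07). The genotypes did not overlap for either gene, as for 1.18% of genes in this direction. The ubiquitin ligase genes Fbxo32 (0.97, adjusted p = 1.52e-05) and Trim63 (0.41, adjusted p = 0.0156) rose, as did Foxo1 itself (0.40, adjusted p = 0.0121), and in all 6 of the 11 FoxO list genes rose and none fell, beside 23.2% and 2.14% of all genes. Under 4 scalings 4 of the 11 were called higher and 2 lower. These were median-of-ratios, without the 100 most abundant genes, quantile normalization, and GC and length correction. In FPKM the counts were 6 and 2, and with array weights 5 and 2. With a library left out, 6 to 7 were called higher and 0 to 2 lower. Trim63 and Foxo1 lost their calls under the same 4 scalings, with adjusted p up to 0.271 and 0.245, and Trim63 also with array weights (0.079). At 25 weeks none of the 11 was called, against 4.7% of genes, though 1 was called higher with array weights. The change differed between ages, where 0.492% of genes were called, for Cdkn1a (-1.53, adjusted p = 0.00801), Gadd45a (-1.24, adjusted p = 0.0112) and Fbxo32 (-1.13, adjusted p = 0.00291).

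Igf2, the second IGF ligand, was at 5.03 ± 1.59 TPM in WT and 11.4 ± 5.55 TPM in Col6a2-/- at 5 weeks (SD, n = 8; change 0.93, adjusted p = 0.00297). It was above the WT mean in 7 of 8 Col6a2-/- mice. Htra3, a secreted protease, was the one pathway gene called at both ages (0.58, adjusted p = 0.000499, and 0.41, adjusted p = 0.0341); the later call was lost in 8 of 32 fits with a library left out, and under 4 other settings. Akt1, the kinase below PI3K (0.43, adjusted p = 0.0019), and Grb10, an adaptor that restrains insulin and IGF receptors (0.44, adjusted p = 0.00869), rose at 5 weeks. Both kept their calls over the 13 other settings, at down to 0.24 and 0.26. Kazald1, a relative of the binding proteins, fell by 0.495 (adjusted p = 0.0275), and lost its call without the filter (adjusted p = 0.0616) and in 2 fits with a library left out. The related Igfbp1 and Igfbpl1 had means of 0 TPM in both genotypes at both ages.

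**Figure D4:**
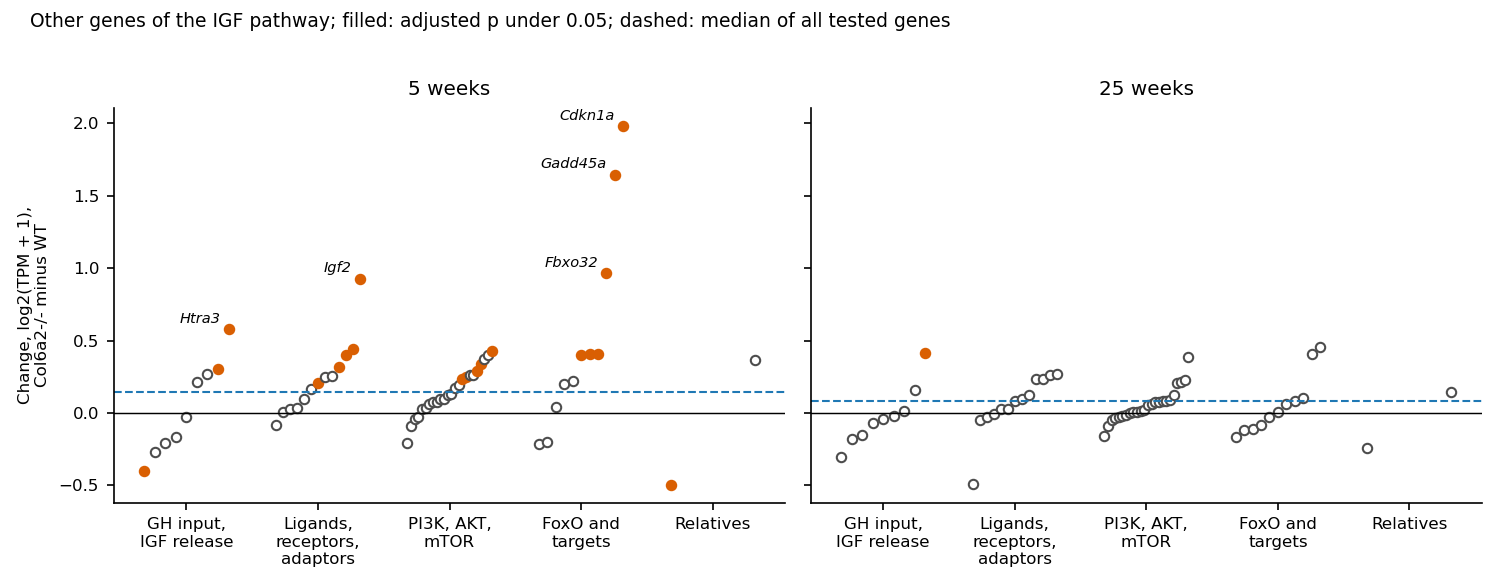
Genotype change (y axis, log2(TPM + 1), Col6a2-/- minus WT) of the 59 other pathway genes at 5 and 25 weeks, sorted within 5 lists (x axis). Filled orange points passed an adjusted p under 0.05 and the dashed line is the median of all tested genes; 20 pass at 5 weeks, the largest being Cdkn1a, Gadd45a, Fbxo32 and Igf2, and 1 at 25 weeks.

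The genes closest to a member over the 32 libraries were ranked by Pearson correlation of log2(TPM + 1), as a description over points that share library, scaling and group. Igfbp2 was closest to Krt8 (r = 0.96), Mymk (0.959) and Chrng (0.954). Krt8 encodes a keratin, Mymk a protein of myoblast fusion and Chrng the subunit of the acetylcholine receptor of immature or denervated fibres. Krt8 was listed at 0 in all WT mice at 5 weeks and at 0.505 to 2.75 TPM in Col6a2-/-, Mymk at 0.163 to 0.982 and 2.21 to 7.45 TPM, and Chrng at 0 to 0.217 and 0.749 to 2.50 TPM. All 3 were at or below 0.600 TPM at 25 weeks. For deviations from the group means, which leave out the differences between groups, the correlations with Igfbp2 were 0.807, 0.611 and 0.691. Female 4 was the lowest of the 8 Col6a2-/- mice at 5 weeks for Krt8, Mymk, Chrng and Igfbp2.

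**Figure D5:**
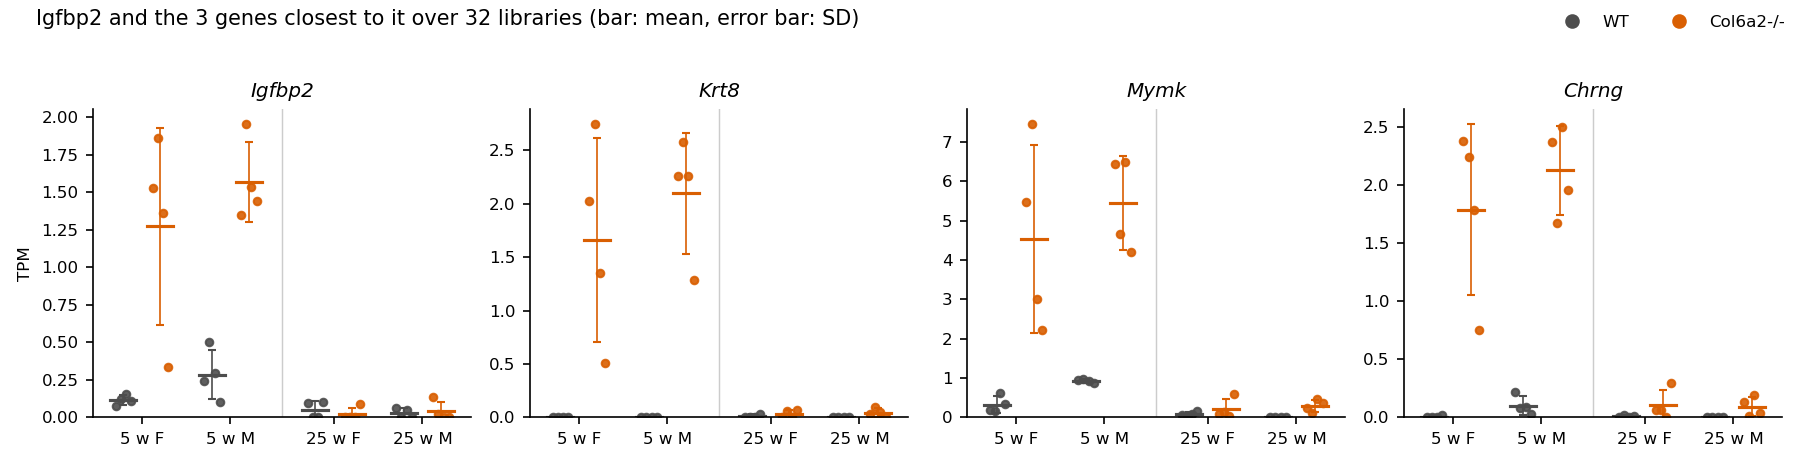
TPM (y axis) of Igfbp2 and of the 3 genes closest to it over 32 libraries, Krt8, Mymk and Chrng, by age and sex (x axis; 4 mice per group, bars are means, error bars SD, grey WT and orange Col6a2-/-). All 4 are highest in the 5-week Col6a2-/- groups and at most 0.600 TPM at 25 weeks.

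Igf1 was closest to Gm3608 (r = 0.98), Ckap4 (0.977) and Col6a3 (0.976), the last encoding another collagen VI chain. Col6a3 averaged 43.6 TPM in WT and 69.5 TPM in Col6a2-/- at 5 weeks, and 12.0 and 19.3 TPM at 25 weeks. The within-group correlations with Igf1 were 0.935, 0.891 and 0.896. Igf1r was less close to any gene, with Rptor, a subunit of mTORC1, at 0.815 and Arid2 and Chic2 at 0.809. Among the members themselves, deviations from group means correlated positively in 44 of 45 pairs, with a median of 0.443. The highest were Igf1 with Igf2r (0.832) and Igf1 with Irs1 (0.811). The median correlation of a member with all tested genes lay between 0.255 (Igfbp4) and 0.539 (Igf2r).

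Marker lists of other cells were counted beside these genes, where 23.2% of all genes were called higher and 2.14% lower at 5 weeks, and 4.47% higher at 25 weeks. All 7 macrophage markers rose at both ages, and their summed level was 60.96 to 103 TPM in WT and 99.1 to 343 TPM in Col6a2-/- at 5 weeks, and 41.1 to 113 and 109 to 204 TPM at 25 weeks. Of the 7 fibroblast markers 4 rose at 5 weeks and 5 at 25 weeks, with summed levels of 923 to 1646 and 787 to 2266 TPM, then 429 to 821 and 836 to 1279 TPM. Near the share of all genes, endothelial markers rose in 2 of 6 at 5 weeks (51.0 to 91.6 and 56.0 to 100.3 TPM) and in none at 25 weeks, and smooth muscle and pericyte markers in 2 of 5 (139 to 214 and 162 to 206 TPM) and in none. Of the satellite cell and myoblast markers tested, 3 of 4 rose at 5 weeks (summed 8.41 to 14.0 and 11.4 to 38.8 TPM) and none at 25 weeks. Over the 13 other settings the counts called higher at 5 weeks ran from 6 to 7 for macrophages, 3 to 4 for fibroblasts and 1 to 4 for satellite cells and myoblasts, with 1 of 4 after quantile normalization and after GC and length correction. At 25 weeks they ran from 5 to 7, 4 to 5 and 0 to 1, and 1 of the 4 satellite cell and myoblast markers was called lower with median-of-ratios factors, after quantile normalization and after GC and length correction. Of the regeneration markers Myh3, Mymk and Mymx rose at 5 weeks and Myh8 did not (summed 101 to 142 and 84.8 to 193 TPM, with Myh8 at a median of 107), and at 25 weeks 1 of the 4 rose (1 to 3 over the other settings). At 5 weeks 1 of the 4 was called lower with median-of-ratios factors, without the 100 most abundant genes and after GC and length correction, and at 25 weeks 1 was with the first and last of these. Of 7 myofibre markers 3 fell at 5 weeks (summed 25560 to 31430 and 19500 to 30320 TPM) and none was called at 25 weeks. No tenocyte, adipocyte or Schwann cell marker was called at either age. The part of these cells in the member changes was not tested, and in whole muscle a change in the number of cells of a type cannot be told apart from a change in RNA per cell.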

How the data were processed

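Quadriceps RNA from 32 mice was sequenced as paired-end TruSeq libraries, 1 per mouse, per the labels' protocols. The submitters' processing notes name FastQC, MultiQC, Trimmomatic, HISAT2, SAMtools and StringTie and the builds GRCm38 and mm10; settings and strand use are not given in the sources used here. Each deposited table holds TPM, FPKM and coverage per gene, computed by the authors, per the file headers. The deposited FPKM and coverage values served for an alternative and for relative depth. No counts were used, so the branch of the design for normalised values was followed.

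TPM was summed per gene ID and analysed as log2(TPM + 1), pseudocount 1, keeping genes that reached 1 TPM in 4 or more libraries. This scale understates changes of low genes. A single model of 8 group means over the 32 libraries was fitted in limma 3.58.1 (eBayes with trend, two-sided) in R 4.3.3, with Benjamini-Hochberg adjustment over 12817 genes within each of 11 comparisons and 3 on sex within age added after seeing the data. The pipeline was tested on simulated data. Python 3.11.15, numpy 2.4.6, pandas 2.3.3, scipy 1.17.1 and matplotlib 3.10.9 were used, with the R packages splines 4.3.3 and data.table (version 1.17.8). Labels give mice as separate samples, and the highest correlation between libraries was 0.984, so none was merged.

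The rule names all 10 members in each comparison; in the comparisons within or of sex, members that were not called are partly given as a range. For pathway lists the called genes with the 10 largest changes at each age are named, and for likeness the top 3 genes for Igf1, Igf1r and Igfbp2. The members and lists were chosen with earlier results of these data known. Alternatives were a pseudocount of 0.1, no filter or at least 5 TPM, other scalings, FPKM, GC and length correction, the replicate block, array weights, no trend, the 16 libraries of an age, and leaving out each library.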

Additional observations from a re-analysis of the deposited data

Results flagged for a closer look

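Single libraries stood apart from the other 3 of their group in 6 of 80 groups of 4 tested (10 genes in 8 groups), where chance gives about 1 in 20. Col6a2-/- female 2 at 5 weeks was high for Igfbp4 (33.48 TPM, the others 12.66 to 14.09) and for Igfbp5 (118.6 TPM, the others 26.78 to 41.64). WT male 4 at 25 weeks was high for Igfbp4 (19.25 TPM, the others 4.784 to 6.714). Col6a2-/- female 4 at 25 weeks had 0.08606 TPM of Igfbp2, which was listed at 0 in the other 3. Any value above 0 would have been flagged there, so this 1 of the 6 carries no weight. Col6a2-/- female 3 at 25 weeks was low for Igfbp7 (43.49 TPM, the others 49.55 to 50.67), and WT female 1 at 25 weeks was low for Irs1 (10.92 TPM, the others 14.68 to 15.24).

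In limma, the effect of genotype differed between the ages for Igfbp2, by -0.9969 on the log2 scale (SE 0.1402, adjusted p = 7.17e-05). The effect of sex differed between the ages for Igf1 by -0.8825 (SE 0.2449, adjusted p = 0.0426), for Igfbp7 by -0.6537 (SE 0.1646, adjusted p = 0.0287) and for Irs1 by -0.7685 (SE 0.1992, adjusted p = 0.0319). Igfbp2 was tested only because it was high at 5 weeks in Col6a2-/-. The sex comparisons within age were added after seeing the values they restate. Their calls were lost in 24, 3 and 9 of 32 fits with a library left out and under 7, 2 and 6 of 12 other settings for Igf1, Igfbp7 and Irs1.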

How the results depend on the processing

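Alternatives were computed for all 10 members in the genotype comparisons at each age, their difference and both age comparisons, and for 1 to 5 members in the comparisons within each sex and age, of sex at each age and of sex by age; members were not tracked for sex over both ages or genotype by sex. Over these, 2945 values kept direction and side of the threshold, 65 newly passed it, 130 lost it and 50 turned sign; the causes were not tested. Igfbp2, Igfbp7 and Igf2r stayed positive at 5 weeks in each setting that tested them (Igfbp2 was not tested at 5 TPM or more). Of called genes, 91.6% were higher at 5 weeks and 95% at 25 weeks, against 52.3% and 58.5% with median-of-ratios factors, 65.9% and 76.0% without the 100 most abundant genes, 45.8% and 57.0% after quantile normalization, and 45.1% and 50.3% after GC and length correction. Same-numbered libraries of different groups had a median r of deviations of 0.032 (from -0.34 to 0.349). Other pairs had -0.013 (from -0.412 to 0.34). What the numbers mark is not given in the labels, and a small effect shared by a number could be missed here. With the replicate block 3293 genes were called at 5 weeks and 658 at 25 weeks, and 1 member call was lost (Igf1r with age in Col6a2-/-). Read counts are unknown, which limits what can be said of Igfbp2 near 0.

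Called genes numbered 3253 (at 5 weeks), 603 (at 25 weeks), 63 (genotype by age), 1648 (5-week females), 645 (5-week males), 1 (25-week females), 388 (25-week males), 2 (genotype by sex), 2536 (age in WT), 4389 (age in Col6a2-/-), 391 (sex), 575 (sex at 5 weeks), 309 (sex at 25 weeks) and 440 (sex by age). With each library left out they ranged 2207 to 4749 (at 5 weeks), 270 to 983 (at 25 weeks), 49 to 229 (genotype by age), 455 to 3865 (5-week females), 313 to 1003 (5-week males), 1 to 5 (25-week females), 55 to 816 (25-week males), 2 to 3 (genotype by sex), 2114 to 3004 (age in WT), 3464 to 5506 (age in Col6a2-/-), 327 to 693 (sex), 281 to 3420 (sex at 5 weeks), 208 to 497 (sex at 25 weeks) and 176 to 3821 (sex by age). The lowest count at 5 weeks came without Col6a2-/- male 1 and the highest without Col6a2-/- female 4; at 25 weeks they came without Col6a2-/- male 1 and without the 5-week Col6a2-/- female 2. With the 16 libraries of an age, calls numbered 1907 (at 5 weeks), 561 (5-week females), 332 (5-week males), 1177 (at 25 weeks), 6 (25-week females) and 1075 (25-week males). In FPKM, calls numbered 2 (25-week females), 376 (sex at 5 weeks) and 516 (sex at 25 weeks). After GC and length correction, calls numbered 1185 (at 25 weeks), 158 (genotype by age), 1266 (5-week males), 11 (25-week females), 647 (25-week males), 876 (sex), 492 (sex at 25 weeks) and 293 (sex by age). With array weights, calls numbered 1967 (at 25 weeks), 241 (genotype by age), 2879 (5-week females), 1176 (5-week males), 33 (25-week females), 2437 (25-week males), 0 (genotype by sex), 4166 (age in WT), 925 (sex), 2317 (sex at 5 weeks), 1543 (sex at 25 weeks) and 3803 (sex by age). At 5 TPM or more, calls numbered 1553 (at 5 weeks), 344 (at 25 weeks), 32 (genotype by age), 722 (5-week females), 295 (5-week males), 251 (25-week males), 1441 (age in WT), 2263 (age in Col6a2-/-), 258 (sex) and 332 (sex at 5 weeks). With median-of-ratios factors, calls numbered 1282 (at 25 weeks), 132 (genotype by age), 1082 (5-week males), 12 (25-week females), 809 (25-week males), 822 (sex) and 488 (sex at 25 weeks). Without the filter, calls numbered 343 (at 25 weeks), 115 (genotype by age), 4 (25-week females), 133 (25-week males), 5 (genotype by sex) and 222 (sex by age). With a pseudocount of 0.1, calls numbered 2 (25-week females) and 736 (25-week males). After quantile normalization, calls numbered 163 (genotype by age), 1151 (5-week males), 4 (25-week females), 828 (sex) and 242 (sex by age). With the replicate block, calls numbered 2 (25-week females). Scaled without mitochondrial and Rn7s genes, calls numbered 863 (5-week females), 1372 (5-week males), 3 (25-week females), 218 (25-week males), 200 (sex at 25 weeks) and 207 (sex by age). Scaled without the 100 most abundant genes, calls numbered 1066 (at 25 weeks), 117 (genotype by age), 7 (25-week females), 706 (25-week males), 781 (sex), 465 (sex at 25 weeks) and 282 (sex by age). Igf1r at 25 weeks turned sign at -0.031, -0.0014, -0.0052, -0.088 and -0.0877 (median-of-ratios scaling, without mitochondrial and Rn7s genes, without the 100 most abundant genes, quantile normalised and GC and length correction). Igf1r at 5 weeks turned sign at -0.0419 and -0.0507 (quantile normalised and GC and length correction). Igfbp3 at 25 weeks turned sign at -0.0519, -0.013, -0.0179, -0.0639 and -0.0661 (median-of-ratios scaling, without mitochondrial and Rn7s genes, without the 100 most abundant genes, quantile normalised and GC and length correction). Igfbp3 at 5 weeks turned sign at -0.1692, -0.0041, -0.1227, -0.1556, -0.0197 and -0.187 (median-of-ratios scaling, without mitochondrial and Rn7s genes, without the 100 most abundant genes, quantile normalised, FPKM and GC and length correction). Igfbp3 genotype by age turned sign at -0.009 (without mitochondrial and Rn7s genes). Igfbp5 genotype by age turned sign at -0.0411 (without mitochondrial and Rn7s genes). Igfbp6 age in Col6a2-/- turned sign at 0.0783, 0.0429, 0.0225 and 0.1117 (median-of-ratios scaling, without the 100 most abundant genes, quantile normalised and GC and length correction). With a library left out, Igfbp3 at 5 weeks ran from -0.0697 to 0.0674. Igfbp3 at 25 weeks ran from -0.0487 to 0.1198. Igfbp2 at 25 weeks ran from -0.0327 to 0.0009. Igf1 genotype by age ran from -0.1013 to 0.23. Igfbp3 genotype by age ran from -0.0519 to 0.1167. Igfbp5 genotype by age ran from -0.1083 to 0.2427.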
